A study of Mus musculus with 10 samples.

Results

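Of 54532 genes in the deposited gene table, 67 are clustered replication-type histone genes, taken as every gene whose annotated name begins with Hist1h, Hist2h, Hist3h or Hist4h. They comprise 6 H1, 18 H2A, 19 H2B, 12 H3 and 12 H4 genes. Hist1h2al and Hist3h2bb-ps are among them, although their RefSeq symbols (H2af-ps2 and H2bu1-ps) mark pseudogenes. RNA was sequenced from the peri-pulmonary vein part of left atrial tissue, the atrial wall around the mouths of the lung veins, in 10 mice aged 7 weeks. The 4 Ctrl mice were R26creERT2/creERT2; Tbx5+/+ and the 6 CKO mice R26creERT2/creERT2; Tbx5flox/flox, so that every animal carried a tamoxifen-inducible Cre recombinase at both copies of the broadly active Rosa26 locus. Mice of both genotypes received tamoxifen intraperitoneally for 3 days at 6 weeks, and tissue was taken 1 week later. Tbx5 encodes a T-box transcription factor needed for atrial development and rhythm, and the deletion was not limited to heart muscle by the Cre line. The comparison asked how loss of Tbx5 changed expression in this tissue.

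Replication-type histone genes supply the histone proteins that package newly copied DNA, and in most cells their transcripts accumulate while DNA is replicated. The core histones H2A, H2B, H3 and H4 form the nucleosome, and H1 proteins bind the linker DNA between nucleosomes. Their messenger RNAs usually end in a short conserved stem-loop in place of a polyA tail, which the stem-loop binding protein recognises. Several of these genes can also make longer, polyadenylated transcripts, which differentiated cells that do not divide use. What a library holds of these transcripts therefore depends on how RNA was selected. The labels report removal of ribosomal RNA before library construction, yet also give polyA RNA as the molecule, so the selection is not settled.

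The 67 genes lie in 4 places on GRCm38. The Hist1 genes number 53 on chromosome 13, of which 52 lie between positions 21715763 and 23934156 and Hist1h2al stands apart at 51202727 to 51203065. The Hist2 genes number 10 on chromosome 3, the Hist3 genes 3 on chromosome 11, and Hist4h4 stands alone on chromosome 6. Stem-loop letters, searched on the transcript strand as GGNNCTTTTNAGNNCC, were present in the most covered annotated transcript of 42 members and absent from that of 25. The 16 letters of stem and loop read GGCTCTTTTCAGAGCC in 25 of the 42, none of them an H4 gene. The other stem-loops outside H4 have the same stem, GGCTC with GAGCC, and differ only in the loop. All 10 H4 genes with a stem-loop have another stem, GGCCC with GGGCC in 8 and GGTCC with GGACC in 2. The stem-loops below belong to the most abundant member, to a member with a large rise, to a pair of H4 genes that moved in opposite directions and to another abundant H4 gene, each with 5 bases on either side and the 16 bases of the motif in capitals. They come from the reference transcripts and lie at chr13:23739507-23739532 (plus strand), chr13:21722501-21722526 (plus), chr13:23551286-23551311 (minus), chr13:22040961-22040986 (minus) and chr13:23531453-23531478 (plus).
Hist1h1c stem-loop: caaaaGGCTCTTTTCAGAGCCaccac
Hist1h2bm stem-loop: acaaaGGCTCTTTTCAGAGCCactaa
Hist1h4f stem-loop: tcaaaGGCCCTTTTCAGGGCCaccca
Hist1h4i stem-loop: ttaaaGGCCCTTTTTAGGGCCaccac
Hist1h4h stem-loop: ccaaaGGCCCTTTTCAGGGCCgccca

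Promoter sequences (RefSeq, GRCm38.p6, 250 bases before to 50 after the annotated start) were matched for 59 of the 67 members, and short motifs were counted on both strands. A TATA box (TATAAA) occurred in 33 of the 59 (55.9%), against 13.6% of 32851 promoters of all genes. A CCAAT box (CCAAT) occurred in 51 of the 59 (86.4%), against 37.4%. It was in every matched H1, H2A, H2B and H3 promoter and in 3 of 11 H4 promoters. The octamer ATTTGCAT occurred in 6 of 16 H2A and 6 of 16 H2B promoters, in none of the H1, H3 or H4 promoters, and in 1.74% of all promoters. The H1 box AAACACA occurred in 5 of 6 H1 promoters, against 7.18% of all. These are letter matches and not measured binding sites. The promoters of an H1, an H2B and 2 H4 genes are shown because these 4 include members that rose and the member that fell. They lie at chr13:21780576-21780875 (minus strand), chr13:21721794-21722093 (plus), chr13:23551619-23551918 (minus) and chr13:22041313-22041612 (minus), and capitals mark these motifs on either strand.
Hist1h1b promoter: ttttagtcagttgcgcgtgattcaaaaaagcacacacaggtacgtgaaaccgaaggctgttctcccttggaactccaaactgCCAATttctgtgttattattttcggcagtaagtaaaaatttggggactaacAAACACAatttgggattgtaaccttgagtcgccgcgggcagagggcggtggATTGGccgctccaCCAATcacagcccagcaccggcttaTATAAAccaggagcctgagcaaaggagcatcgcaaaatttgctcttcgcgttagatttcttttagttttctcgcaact
Hist1h2bm promoter: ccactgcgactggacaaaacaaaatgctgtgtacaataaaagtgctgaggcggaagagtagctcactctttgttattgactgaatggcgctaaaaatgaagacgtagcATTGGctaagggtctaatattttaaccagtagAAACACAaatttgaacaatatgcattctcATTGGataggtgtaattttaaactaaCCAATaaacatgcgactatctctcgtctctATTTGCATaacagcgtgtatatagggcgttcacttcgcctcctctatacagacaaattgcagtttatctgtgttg
Hist1h4f promoter: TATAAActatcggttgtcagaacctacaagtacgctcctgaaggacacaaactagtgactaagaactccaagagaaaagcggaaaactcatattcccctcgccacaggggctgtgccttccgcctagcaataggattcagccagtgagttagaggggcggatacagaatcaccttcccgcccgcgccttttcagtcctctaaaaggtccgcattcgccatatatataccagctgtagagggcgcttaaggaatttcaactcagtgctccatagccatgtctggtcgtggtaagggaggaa
Hist1h4i promoter: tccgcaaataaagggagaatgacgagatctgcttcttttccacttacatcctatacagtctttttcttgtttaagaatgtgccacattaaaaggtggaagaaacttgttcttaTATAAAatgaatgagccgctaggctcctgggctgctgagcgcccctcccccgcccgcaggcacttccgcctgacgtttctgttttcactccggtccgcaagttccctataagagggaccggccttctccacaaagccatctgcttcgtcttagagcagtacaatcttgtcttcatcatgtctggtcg

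Summed gene counts per library ran from 8602794 to 10040808, and CPM below are counts scaled to library size after TMM normalisation. Coverage of Tbx5 exon 3, relative to the median exon of the main transcript, was 1.20 ± 0.356 in Ctrl (SD, n = 4) and 0.452 ± 0.174 in CKO (SD, n = 6), with the lowest Ctrl at 0.903 and the highest CKO at 0.618. Total Tbx5 RNA was 134 ± 31.6 and 268 ± 105 CPM (log2 fold change 1.00, adjusted p = 0.101, edgeR). Markers of the airway lining summed to 4048 CPM in Ctrl 3, to 6677 CPM in CKO 4 and to 230.4 CPM or less in the remaining libraries. The 9 atrial muscle genes read as tissue markers summed to between 33110 and 50190 CPM. Xist, an RNA of female cells, was at 1004 to 1371 CPM in Ctrl 1, Ctrl 2 and CKO 1 to 3. In the other libraries it was at 1.44 to 6.44 CPM, so both kinds of library occurred in each group. Counts of the histone genes carry an added limit, because members resemble each other: between 0% and 100% of a member's 50-base words also occur in transcripts of other genes, and in 31 members the share is 50% or more. How reads were divided among such copies was not stated.

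Summed over all 67 members, histone transcripts stood at 376, 415, 491 and 398 CPM in Ctrl 1 to 4. In CKO they ranged from 452 to 1148 CPM with a median of 708. The mean was 419.8 ± 50.1 CPM in Ctrl and 742 ± 235 CPM in CKO, a ratio of 1.77. CKO 3, the lowest CKO library, lay inside the range of the Ctrl libraries, and the other CKO libraries lay above it. In bulk tissue, a larger number of cells that make histone RNA and more of it per cell cannot be told apart.

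H3 genes went from 21.5 ± 2.41 to 64.5 ± 27.9 CPM, a ratio of 3.00. The ratio was 1.72 for H1, 1.71 for H2A, 1.72 for H2B and 1.65 for H4. For H3 the lowest CKO library (30.2 CPM) was above the highest Ctrl library (24.5 CPM), whereas for each of the other 4 classes CKO 3 lay below the highest Ctrl library. These sums weigh the abundant genes most. Over single tested genes the median log2 fold change was 1.68 for H3, 1.57 for H2B, 1.55 for H1, 1.46 for H2A and 0.838 for H4. The difference between classes was not tested.

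**Figure D1:**
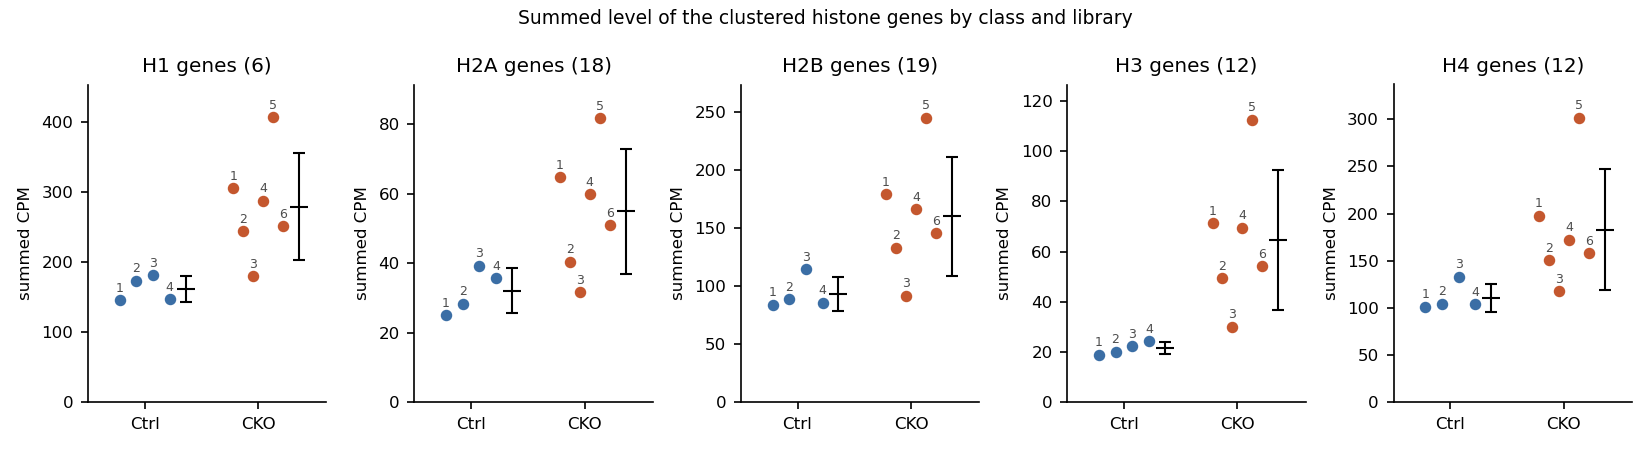
Summed CPM of the histone genes of each class in every library, with the library number above each point; the bar beside each group is the mean with the SD (n = 4 Ctrl, n = 6 CKO). H3 genes had no overlap between groups (at most 24.5 CPM in Ctrl and at least 30.2 CPM in CKO), and CKO 5 was the highest library in every panel.

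The sums rested on a few genes. Per length, in TPM (transcript level per length and library size), the order in Ctrl began with Hist1h1c, a linker histone, at 141 ± 8.84. Hist1h4h followed at 104 ± 5.97, with Hist2h2bb at 74.9 ± 18.6 and Hist1h2bc at 72.4 ± 13.1. Hist2h2bb and Hist1h2bc did not differ beyond their spread, and their order varied between Ctrl libraries. Hist1h4d (55.8 ± 5.59) and Hist1h4c (49.3 ± 7.74) came next. Their spreads overlapped, but Hist1h4d was the higher of the pair in every Ctrl library. Hist1h1e stood at 39.0 ± 5.54 and Hist1h4i at 24.7 ± 3.02 TPM. In CKO Hist1h1c (177 ± 18.7 TPM) and Hist2h2bb (174 ± 43.2 TPM) led and did not differ beyond their spread, and Hist1h4i dropped from the 8th to the 39th place at 7.72 ± 1.495 TPM. Of the summed CPM, Hist1h1c made up 25.7% ± 2.42 in Ctrl and 20.8% ± 3.03 in CKO.

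**Figure D2:**
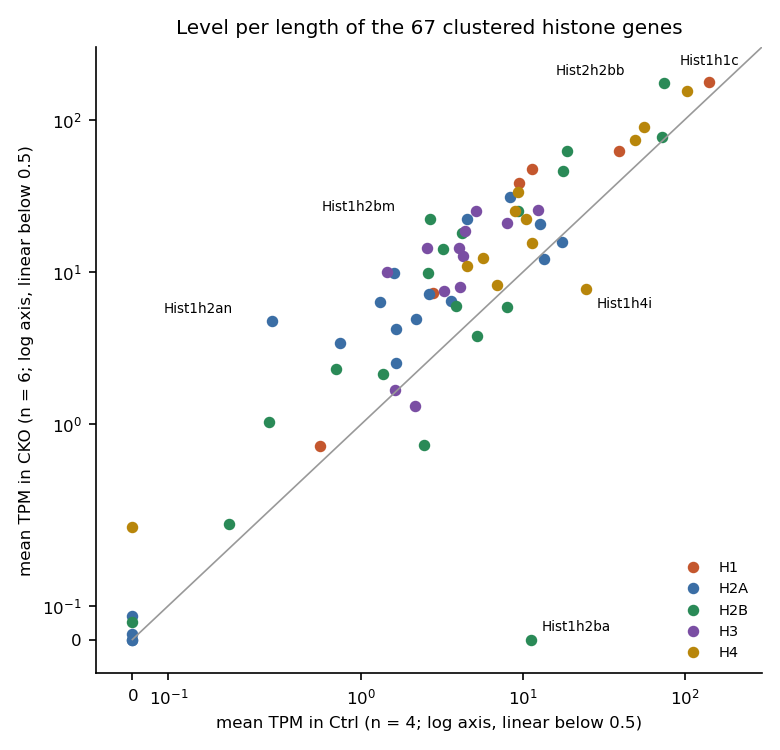
Mean TPM of each of the 67 genes in Ctrl (horizontal) and CKO (vertical), coloured by histone class, on log axes that are linear below 0.5; the line marks equal levels. Hist1h4i (24.7 and 7.72 TPM) and Hist1h2ba (11.2 and 0 TPM) lie far below the line, and most other genes lie above it.

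Gene by gene, 65 members had any count and 52 had enough counts to be tested. Of these 52, 18 rose in CKO (34.6%, against 1.54% of 17752 tested genes called higher) and 1 fell (1.92%, against 1.26% called lower). A call is an adjusted p under 0.05 in edgeR's quasi-likelihood test with Benjamini-Hochberg adjustment over all tested genes. The low-count filter favoured members high in the larger CKO group. Hist1h2af, Hist1h2an and Hist1h3h, all called higher, met it through CKO libraries alone. The H2A genes Hist1h2ad, Hist1h2ae, Hist1h2ag, Hist1h2ai and Hist2h2ab did so too, with fitted changes above 0 that did not pass. All of these are included in the counts and medians of tested members. A gene high only in Ctrl needed every Ctrl library, and Hist1h2ba was left out. In 21 of the 52 (40.4%, against 3.03% of tested genes) every CKO library was above every Ctrl library, and in 1 every CKO library was below every Ctrl library (2.7% of tested genes). The fitted change was above 0 in 47 of 52 (90.4%, against 46.6% of tested genes), with a median log2 fold change of 1.44 against -0.0255 over all tested genes. The other 33 tested members did not pass with edgeR, among them the most abundant, some of which passed with DESeq2. The number of members called higher rested on single libraries: it was 2 without Ctrl 1, 1 without Ctrl 2, 7 without Ctrl 4, 9 without CKO 1 and 28 without CKO 3. It was 8 without Ctrl 3 and CKO 4, the libraries with airway transcripts, and 35 with DESeq2, while between 45 and 49 members had a fitted change above 0 in these fits.

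**Figure D3:**
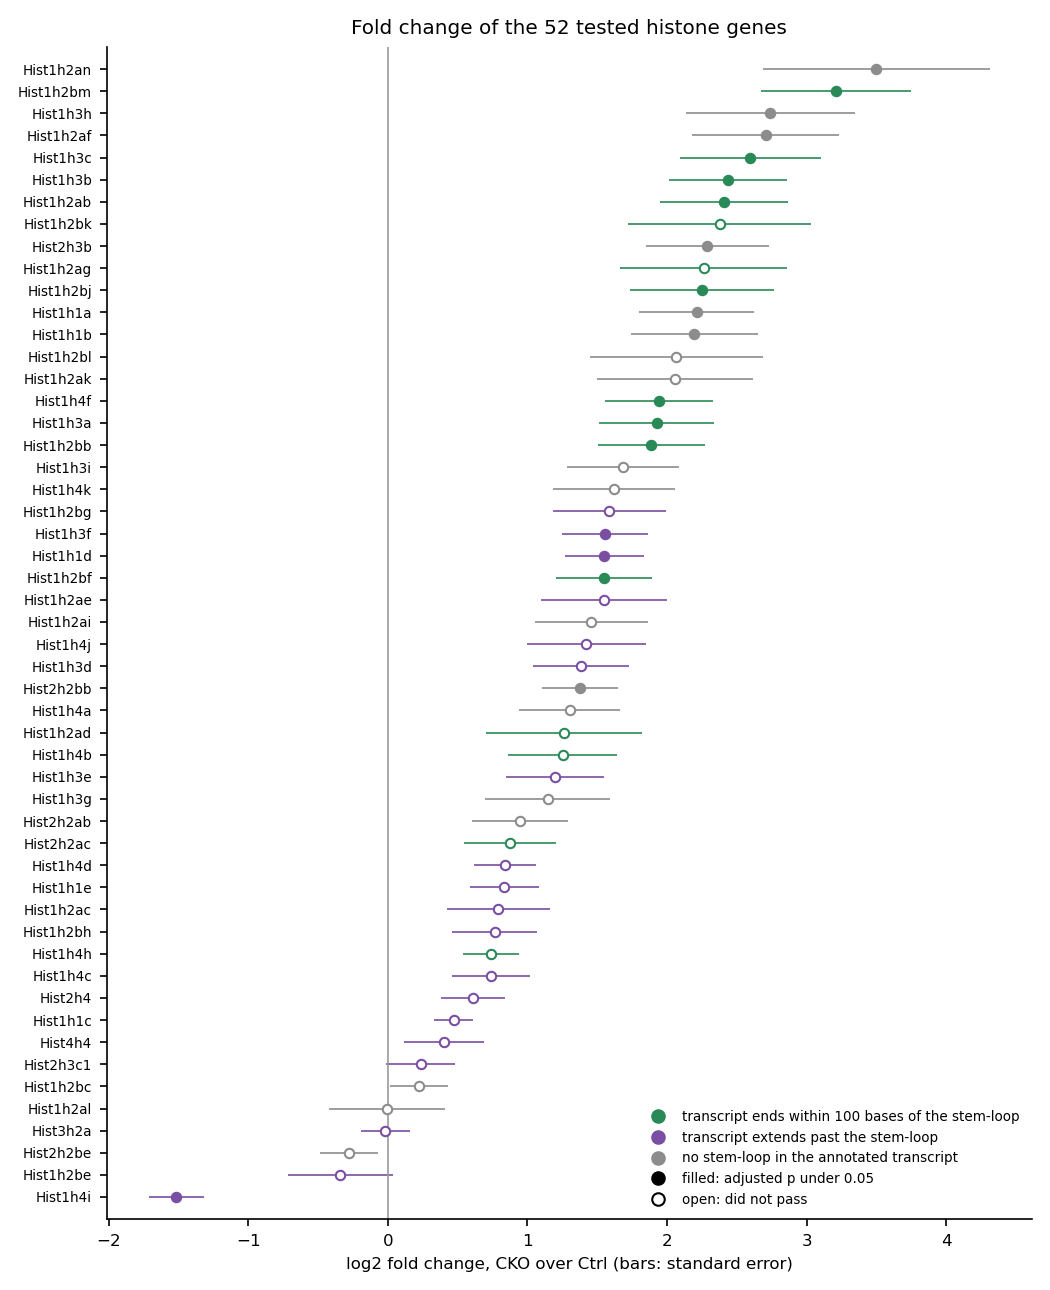
Log2 fold change (CKO over Ctrl) of the 52 tested members with standard errors, ordered by size; filled points passed an adjusted p of 0.05, and colours give how the annotated transcript ends. Hist1h4i at -1.52 is the only filled point below 0, and the abundant Hist1h1c (0.47) is an open point.

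Among the linker histones, 3 of 5 tested genes rose, against 1.54% of all tested genes. Hist1h1a (ENSMUSG00000049539, chromosome 13, 23763666 to 23764406, plus strand) stood at 2.22, 3.50, 5.22 and 5.76 CPM in Ctrl 1 to 4 and between 8.90 and 37.9 CPM in CKO, with a median of 17.4. Every CKO library was above every Ctrl library, and the log2 fold change was 2.21 (SE 0.41, adjusted p = 0.0168, edgeR). Hist1h1b, whose promoter is shown above, was at 1.80, 1.97, 4.22 and 5.76 CPM in Ctrl 1 to 4 and between 6.37 and 27.1 CPM in CKO, with a median of 14.2. Its log2 fold change was 2.20 (SE 0.46, adjusted p = 0.0281), and none of the 50-base words of Hist1h1a or Hist1h1b occur in other genes.

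Hist1h1d rose as well, from a mean of 10.06 ± 1.14 CPM to 29.5 ± 11.8 in CKO (1.55 on the log2 scale, SE 0.28, adjusted p = 0.0155, edgeR), again with no overlap. Its annotated transcript is 7425 bases long and runs 4884 bases past the stem-loop. Hist1h1c, the member with most counts, stood at 104, 115, 120.0 and 90.8 CPM in Ctrl and between 113 and 193 CPM in CKO, with a median of 143. Here the groups overlapped at CKO 3, and the change did not pass (log2 fold change 0.47, SE 0.14, adjusted p = 0.114, edgeR), although it did with DESeq2 (adjusted p = 0.0304). Hist1h1e went from 36.7 ± 6.07 to 65.5 ± 21.7 CPM (log2 fold change 0.84, adjusted p = 0.107 with edgeR, 0.0260 with edgeR without CKO 3 and 0.0199 with DESeq2) and shares its strand and part of its span with Hist1h2be. Hist1h1t, which is made in male germ cells, had 35 counts over all libraries and was not tested.

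Among H2A genes 3 of 13 tested rose, against 1.54% of all tested genes. Hist1h2ab was at 1.06, 0.437, 1.44 and 1.44 CPM in Ctrl and between 2.75 and 10.9 CPM in CKO (median 4.79; log2 fold change 2.41, SE 0.46, adjusted p = 0.0194, edgeR). Hist1h2af (log2 fold change 2.71, adjusted p = 0.0209) and Hist1h2an (3.50, adjusted p = 0.0454) rose from 0.328 ± 0.237 and 0.0832 ± 0.106 CPM. Counts in Ctrl 1 to 4 were 2, 6, 1 and 3 for Hist1h2af and 0, 0, 2 and 1 for Hist1h2an. Both met the low-count filter through CKO libraries alone, as did several uncalled H2A genes counted among the 13. For Hist1h2ab and Hist1h2af the groups did not overlap, whereas for Hist1h2an CKO 2 (0.21 CPM) lay below Ctrl 3 (0.222 CPM). Hist1h2an has 62 counts in all and shares 85.8% of its words with other genes, so its level is uncertain. Hist3h2a, the H2A gene with the highest level in Ctrl, averaged 18.3 ± 3.79 CPM in Ctrl libraries against 18.1 ± 3.42 in CKO (log2 fold change -0.02, adjusted p = 0.972). Hist1h2al, outside the main cluster and a pseudogene by its RefSeq symbol, was at 2.25 ± 0.937 and 2.24 ± 1.15 CPM (adjusted p = 0.997, edgeR), with overlapping groups. The alternatives in which these near-zero fold changes changed sign are given under the processing. Hist2h2aa1 and Hist2h2aa2, near-identical copies that share 96.3% and 100% of their words with other genes, were listed at 0 in every library.

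Among H2B genes 5 of 12 tested rose, against 1.54% of all tested genes. Hist1h2bm (ENSMUSG00000114279, chromosome 13, 21722044 to 21722567, plus strand) was at 0.423, 0.546, 0.444 and 1.33 CPM in Ctrl 1 to 4 and between 1.76 and 12.1 CPM in CKO, with a median of 6.20. No CKO library overlapped with Ctrl, and the log2 fold change of 3.21 (SE 0.54, adjusted p = 0.0109, edgeR) was a 9.26-fold rise. It has the stem-loop and the octamer shown above.

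Hist2h2bb (ENSMUSG00000105827, chromosome 3, 96269752 to 96270132, plus strand) stood at 12.2, 9.83, 19.1 and 14.8 CPM in Ctrl and between 21.4 and 55.4 CPM in CKO, with a median of 34.2. It rose 2.60-fold (log2 fold change 1.38, SE 0.27, adjusted p = 0.0223, edgeR) with no overlap and was the most abundant per length of the 18 that rose. Predicted genes overlap it on both strands. Hist1h2bb (log2 fold change 1.89, adjusted p = 0.0254), Hist1h2bf (1.55, adjusted p = 0.0357) and Hist1h2bj (2.25, adjusted p = 0.0428) rose too. Hist1h2bc, the H2B gene with most counts, was at 41.3 ± 10.9 and 48.1 ± 11.8 CPM and did not pass (log2 fold change 0.22, adjusted p = 0.624). The fitted changes of Hist2h2be (-0.28, adjusted p = 0.530) and Hist1h2be (-0.34, adjusted p = 0.681) were below 0 and did not pass either.

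Among H3 genes 6 of 11 tested rose, against 1.54% of all tested genes. All 6 had no overlap between groups, against 3.03% of tested genes. Hist1h3b was at 1.06, 1.20, 1.56 and 2.55 CPM in Ctrl and between 4.28 and 15.5 CPM in CKO, with a median of 7.90 (log2 fold change 2.44, SE 0.42, adjusted p = 0.0132, edgeR). Hist1h3f, the most abundant of the 6 by count, rose from a mean of 4.96 ± 1.09 CPM to 14.6 ± 6.07 in CKO (1.56 on the log2 scale, SE 0.31, adjusted p = 0.0223). Hist1h3h (log2 fold change 2.74), Hist1h3c (2.60), Hist2h3b (2.29) and Hist1h3a (1.93) completed the group, with adjusted p between 0.0205 and 0.0364. Hist1h3h had 0, 4, 3 and 5 counts in Ctrl 1 to 4 and met the low-count filter through CKO libraries alone. Hist1h3h shares 93.9% and Hist2h3b 79.7% of its words with other genes, so the division of reads among H3 copies limits what is known of each.

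Of 11 tested H4 genes 1 rose, 1 fell and 9 did not pass. Over all tested genes 1.54% were called higher and 1.26% lower, so single calls do not describe the class. Hist1h4f was at 0.845, 1.86, 2.89 and 1.88 CPM in Ctrl and between 4.17 and 12.6 CPM in CKO, with a median of 6.92 (log2 fold change 1.94, SE 0.39, adjusted p = 0.0242, edgeR). Hist1h4i (ENSMUSG00000060639, chromosome 13, 22040636 to 22041362, minus strand) went the other way, from 9.19, 9.94, 8.88 and 7.09 CPM in Ctrl 1 to 4 to between 2.22 and 4.25 CPM in CKO, with a median of 2.90. All 6 CKO libraries lay below all Ctrl libraries, a 2.86-fold fall (log2 fold change -1.52, SE 0.20, adjusted p = 0.00252, edgeR). It was the smallest adjusted p of any member, and it stayed under 0.05 whichever library was left out (0.0028 to 0.0153). CKO 5, the highest library for most members, was not the highest CKO library for Hist1h4i (3.27 CPM, against 4.25 in CKO 1).

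Hist1h4i and Hist1h4f encode H4 and their stems are written with the same letters, but the loop differs as printed above, and the 16 letters of Hist1h4i are otherwise found only in Hist2h4 among the 42. The annotated transcript of Hist1h4i runs 330 bases past the stem-loop and holds 2 polyA signals there, while that of Hist1h4f ends 33 bases after it. The abundant H4 genes did not pass with edgeR: Hist1h4h went from 23.7 ± 0.744 to 39.5 ± 12.8 CPM with no overlap (log2 fold change 0.74, adjusted p = 0.0863), Hist1h4d from 31.0 ± 4.97 to 55.4 ± 17.3 (0.84, adjusted p = 0.0783) and Hist1h4c from 19.9 ± 4.68 to 33.2 ± 14.1 CPM (0.74, adjusted p = 0.214). With DESeq2 Hist1h4h (adjusted p = 0.0144) and Hist1h4d (0.00868) passed and Hist1h4c (0.110) did not. Hist1h4d also passed with edgeR without CKO 3 (adjusted p = 0.0260), as did Hist1h4h without CKO 5 (0.0404). Hist2h4 was at 9.03 ± 0.843 and 13.8 ± 4.58 CPM and Hist4h4 at 9.80 ± 3.34 and 12.9 ± 5.10 CPM, neither past the threshold (adjusted p = 0.205 and 0.508).

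Hist1h2ba, a testis-type H2B gene (ENSMUSG00000050799, chromosome 13, 23933773 to 23934156, minus strand), had 21, 25, 28 and 6 counts in Ctrl 1 to 4 and 0 counts in all 6 CKO libraries. At 2.18 ± 1.075 CPM in Ctrl it was at least 6.71-fold lower in CKO, taking 3 counts per CKO library as the limit that a count of 0 allows; this covers counting error only. It had too few counts for the test. The adjusted p of Hist1h2ba was 0.0168 in the edgeR fit with no filter on low counts and 0.0134 in the edgeR fit without Ctrl 4. Without Ctrl 4, its lowest Ctrl library, Hist1h2ba met the filter through the remaining Ctrl libraries alone, so that p gives no support. Hist1h2aa, a testis-type H2A gene, was at 0 and is listed without the name tag that defines the 67 genes. Of the words of Hist1h2ba, 38.2% occur in other genes.

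Histone genes in this family often lie head to head, an H2A and an H2B gene sharing the stretch between their starts. Among the members there were 12 such pairs with 173 to 302 bases between starts, and both genes were tested in 6. The fold changes of partners differed by between 0.016 and 1.15 on the log2 scale. Hist1h2ag (2.27, adjusted p = 0.0766 with edgeR and 0.0066 with DESeq2) and Hist1h2bj (2.25, adjusted p = 0.0428, edgeR) were the closest. Hist2h2ac (0.88, adjusted p = 0.210) and Hist2h2be (-0.28, adjusted p = 0.530) were the furthest apart, and neither passed. Levels within a pair ranged from close to far apart. Hist1h2bl and Hist1h2ai stood at 2.59 and 2.62 TPM in Ctrl and at 9.85 and 7.22 TPM in CKO, whereas Hist1h2bm stood at 22.2 TPM in CKO and its partner Hist1h2aj, with 1 count in all, at 0.0176 TPM. Of their 50-base words, Hist1h2bl shares 82.8%, Hist1h2ai 90.1%, Hist1h2aj 93.1% and Hist1h2bm 43.8% with other genes. The division of reads among copies therefore limits both examples. The partner of Hist1h2an, Hist1h2bp, had 38 counts in all and averaged 0.599 ± 0.258 CPM in Ctrl libraries against 0.292 ± 0.274 in CKO, and Hist3h2bb-ps beside Hist3h2a had 23. Hist1h2ad beside Hist1h2bf (log2 fold change 1.26, adjusted p = 0.284) and Hist1h2ac beside Hist1h2bc (0.79, adjusted p = 0.308) did not pass.

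The members were also set out by how their annotated transcript ends, a grouping made after their values had been seen and given as a description. In 20 members the transcript ends 11 to 74 bases after the stem-loop, and in 22 it runs on for 151 to 4884 bases. Over all tested genes 1.54% were called higher and 1.26% lower. Of the 15 tested that end at the stem-loop 9 rose, 0 fell and the median log2 fold change was 1.94. Of the 19 tested that extend, 2 rose and 1 fell, with a median of 0.79. The 13 tested that extend and hold a polyA signal (AATAAA or ATTAAA) past the stem-loop had a median of 0.61, and of the 18 tested without a stem-loop in the annotated transcript 7 rose, with a median of 1.65. Summed, the 20 genes that end at the stem-loop averaged 48.2 ± 6.55 CPM in Ctrl libraries against 129 ± 53.9 CPM in CKO, with no overlap (at most 54.5 against at least 69.2 CPM). The 15 extended genes with a polyA signal were at 211 ± 23.7 and 305 ± 71.2 CPM, and CKO 3 (213 CPM) lay among the Ctrl libraries. Extended genes were 9 of the 15 most abundant by count. Fold change also went with the share of 50-base words found in other genes. The median log2 fold change was 0.813 in members with under 25% shared words. It was 1.55 with 25% to 50% and 2.06 with 50% or more. Level, sharing of words and transcript end cannot be told apart here.

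Annotated ends are not measured ends, and RNAs without a polyA tail bear on what was captured. Rn7sk, an RNA without a polyA tail that restrains transcription elongation, averaged 11740 ± 2887 CPM in Ctrl libraries against 16070 ± 5330 in CKO, and Malat1, a nuclear RNA whose end is a triple helix, at 17720 ± 2897 and 18580 ± 3268 CPM. RNAs without a polyA tail were thus present in every library of both groups. Of 15 tested genes on a list of 19 such RNAs 0 passed with edgeR (4 at an unadjusted p under 0.05), with a median log2 fold change of 0.61, and with DESeq2 and with limma on TPM 1 passed each. Their sum was 35040 ± 1656 CPM in Ctrl and 43240 ± 6369 in CKO. CKO 5 was the highest library both for this sum (53340 CPM) and for the sum of histone genes that end at the stem-loop (227.0 CPM). The other CKO libraries were ordered differently in the 2 sums: CKO 3 (45520 CPM) was second highest and CKO 4 (33810 CPM) lowest for these RNAs, while for the histone genes CKO 3 was lowest (69.2 CPM) and CKO 4 above 3 of the other CKO libraries (129.6 CPM). The part of RNA selection in the histone result was not tested.

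Genes that act at other steps of cell division were read beside the histones. On a list of mitosis genes 17 of 23 tested rose and 0 fell, with a median log2 fold change of 2.15. The motor protein gene Kif11, which separates spindle poles, went from 1.80, 1.86, 3.22 and 1.88 CPM in Ctrl to between 7.36 and 25.1 CPM in CKO (log2 fold change 2.80, SE 0.35, adjusted p = 0.00245, edgeR). Kif20a, a motor of the midzone in dividing cells (log2 fold change 2.42, adjusted p = 0.00355), the spindle checkpoint gene Bub1b (2.92, adjusted p = 0.00524) and the kinase gene Cdk1 (2.89, adjusted p = 0.00675) rose with no overlap between groups. The count of 17 was 5 without Ctrl 2, 8 without Ctrl 1 and 11 without Ctrl 4. Summed, the mitosis list averaged 101 ± 15.8 CPM in Ctrl libraries against 367 ± 152 CPM in CKO, highest in CKO 5 (639 CPM) and lowest among CKO in CKO 3 (186 CPM). The histone members had the same extremes: CKO 5 was the highest CKO library for 46 of 52 tested members and CKO 3 the lowest for 47. The same shares over all tested genes were not computed, and members that share words are not independent. These counts therefore cannot be read as a trait of the members.

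Of 34 tested DNA replication genes 1 rose, 0 fell and 16 had an unadjusted p under 0.05 with edgeR (median log2 fold change 0.43). Over all tested genes 1.54% were called higher, so 1 call does not describe the list. The share of all tested genes at that unadjusted p was not computed. The gene that passed was Cdc6, which loads the replicative helicase, at 1.01 ± 0.320 and 2.92 ± 0.571 CPM (log2 fold change 1.52, adjusted p = 0.0155, edgeR). The number called was 0 without Ctrl 1, 0 without Ctrl 2, 2 without Ctrl 4 and 6 without CKO 3. It was 7 with DESeq2 and 7 in the edgeR fit with Xist as a covariate. Their sum was 388 ± 34.5 CPM in Ctrl and 514 ± 88.5 CPM in CKO.

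**Figure D4:**
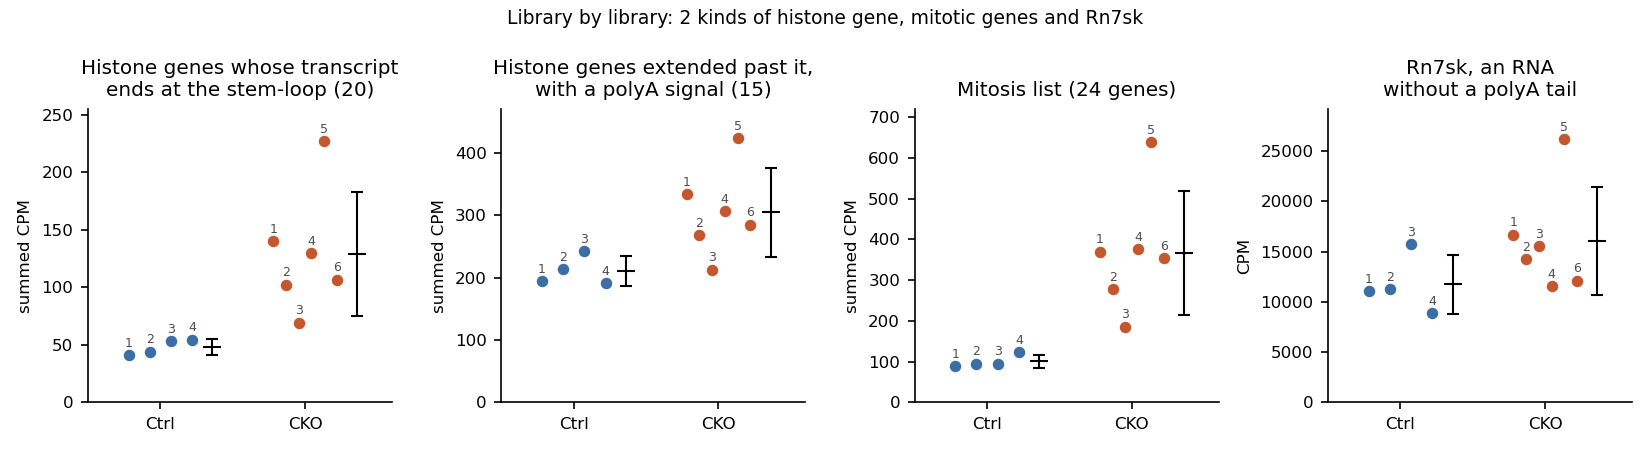
Summed CPM in every library of the 20 histone genes whose transcript ends at the stem-loop, the 15 extended genes with a polyA signal and the 24 mitosis genes, and CPM of Rn7sk; library numbers stand above the points, and bars are the mean with the SD (n = 4 Ctrl, n = 6 CKO). CKO 5 was highest in each panel, while CKO 3 was lowest among CKO for both histone sets and the mitosis list and not for Rn7sk (15530 CPM, against 11600 in CKO 4).

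Replacement histone genes, which are expressed outside DNA replication and whose transcripts are polyadenylated, were compared with the clustered genes. Of 10 tested 0 passed with edgeR (2 at an unadjusted p under 0.05, and 0 with DESeq2), with a median log2 fold change of 0.19. H3f3b, a gene of the H3.3 variant, was at 144 ± 25.4 and 172 ± 38.2 CPM (log2 fold change 0.25, adjusted p = 0.505), and the linker histone H1f0 at 85.7 ± 12.9 and 97.7 ± 4.40 CPM (0.19, adjusted p = 0.389). Their sum was 423 ± 52.3 CPM in Ctrl and 474 ± 72.5 CPM in CKO. Factors that cut and bind histone messenger RNA gave 0 of 20 past the threshold (3 at an unadjusted p under 0.05, 0 with DESeq2), including the scaffold Sympk (log2 fold change -0.18, adjusted p = 0.499) and the cap-linked factor Srrt (0.16, adjusted p = 0.410). Histone chaperones gave 0 of 16 (3 at an unadjusted p under 0.05, 1 with DESeq2; median 0.13), including Atrx, which deposits H3.3 at heterochromatin (0.19, adjusted p = 0.291), and the H4-binding Rbbp7 (0.05, adjusted p = 0.898), whose signs flipped in the fits listed under the processing.

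Markers of other cells were read beside the histones. The leukocyte list (8 tested) had 1 call, against 1.54% of all tested genes called higher. It was the macrophage gene Cd68, at 13.8 ± 4.17 and 30.6 ± 9.03 CPM (log2 fold change 1.15, adjusted p = 0.0390, edgeR). The sum of the list ranged from 664 to 1430 CPM in Ctrl and from 709.5 to 1647 CPM in CKO. The number of leukocyte genes called was 0 when Ctrl 1, Ctrl 2, Ctrl 4, CKO 1, CKO 2, CKO 4, CKO 5 or CKO 6 was left out, 0 without Ctrl 3 and CKO 4 together, 0 with no filter on low counts, 2 without Ctrl 3 and 2 with DESeq2. Thymocyte markers summed to 3.49 to 11.1 CPM in Ctrl and 2.29 to 5.86 CPM in CKO, with 1 of 8 at 0 throughout, Cd4 at 2.39 ± 1.48 and 2.12 ± 0.688 CPM and Themis, not tested, at 1.41 ± 1.70 and 0.566 ± 0.339 CPM. Erythroid markers ranged from 204 to 449 and from 176 to 1566 CPM, and neither Hbb-bs (log2 fold change 1.20, adjusted p = 0.334) nor Hbb-bt (1.43, adjusted p = 0.113), both beta globins of red cells, passed with edgeR, while Hbb-bt passed with DESeq2 (adjusted p = 0.00933) and in the edgeR fit with Xist as a covariate (adjusted p = 0.00864). Airway genes such as Bpifa1 (581 ± 1070 and 627 ± 1524 CPM, adjusted p = 0.987) and Scgb1a1 (adjusted p = 0.987) did not change past the threshold (0 of 6 called, 0 at an unadjusted p under 0.05 and 0 with DESeq2). The part of these cells in the histone result was not tested.

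Atrial muscle genes changed in both directions, with 1 of 9 higher and 3 lower, against 1.54% and 1.26% of all tested genes. Myl7, the atrial regulatory light chain, fell from 5300 ± 1588 to 870.3 ± 195 CPM (log2 fold change -2.61, adjusted p = 0.000116, edgeR), Sln, an atrial inhibitor of the calcium pump, and Myl4, the atrial essential light chain, fell by 0.96 and 0.90 on the log2 scale (adjusted p = 0.0171 and 0.0188), and the troponin T gene Tnnt2 rose (0.73, adjusted p = 0.0136). The number of atrial muscle genes called was 2 without Ctrl 2 and 7 with DESeq2.

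The left atrial appendage, from an earlier set of mice, was described from the authors' deposited table, which holds 44 of the members among 13646 genes; counts of those libraries were not used here. In the authors' deposited table, 37 of the 44 were higher in CKO appendage at a false discovery rate under 0.05, against 16.8% of all genes of the table, and 2 were lower, against 17.9%. In the authors' deposited table for the peri-pulmonary vein region, 31 of the 44 were higher, against 3.03%, and 1 was lower, against 2.47%. The median log2 fold change of the members was 2.33 in the appendage and 1.46 in the vein region in the authors' deposited table, with medians of 0.015 and -0.0092 over all its genes. The 30 members higher in both made up 81.1% of the appendage list and 96.8% of the vein list, and for 28 of the 30 the value in the authors' deposited table was larger in the appendage. The same shares over all its genes were not computed. As 16.8% of its genes were called higher in the appendage and 3.03% in the vein region, these counts cannot be read as a trait of the members. Whether the tissues differ was not tested.

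In the authors' deposited table Hist1h2bm had the largest change in both tissues, 4.64 in the appendage and 3.19 in the vein region, followed in the appendage by Hist1h2bj (3.78) and Hist1h1a (3.71). Hist1h4i was lower in both, at -1.35 (false discovery rate 1.73e-07) and -1.54 (4.15e-06) in the authors' deposited table. Hist2h2be was the other member lower in the appendage, at -0.62 (false discovery rate 0.02), and in the vein region stood at -0.29 (0.722) in the authors' deposited table. Hist1h1c passed in the appendage (0.76, false discovery rate 0.000217) and not in the vein region (0.45, 0.151) in the authors' deposited table. Of the 13 members that end at the stem-loop, 12 were higher in each tissue in the authors' deposited table. Of all its genes, 16.8% were higher in the appendage and 3.03% in the vein region.

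**Figure D5:**
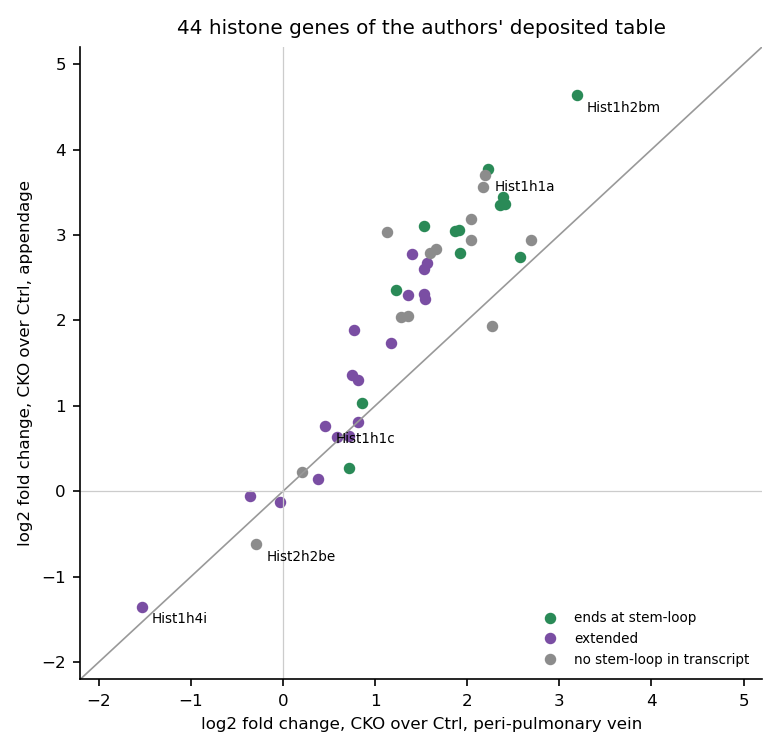
Log2 fold change (CKO over Ctrl) of 44 members in the authors' deposited table, in the peri-pulmonary vein region (horizontal) and the appendage (vertical), coloured by how the annotated transcript ends; the line marks equal change. Hist1h4i lies below 0 on both axes (-1.54 and -1.35), and Hist1h2bm is farthest from 0 on both (3.19 and 4.64).

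In the authors' deposited table of vein region against appendage 0 of 44 were higher, against 8.19% of all genes, and 1 was lower, against 4.06%. The 1 was Hist3h2a, at -0.66 (false discovery rate 0.0234) in the authors' deposited table. The median over the members was -0.017 in that comparison of the authors' deposited table, and it shares its libraries with both comparisons of CKO against Ctrl.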

How the data were processed

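RNA was sequenced from 4 Ctrl and 6 CKO libraries. Per the submitters' processing notes reads were aligned to mm10 with TopHat2 2.1.1, and poorly aligned, duplicated and unmapped reads were removed with BamTools; removal of duplicates can lower counts of short abundant transcripts. Per the file headers StringTie 1.3.3 assigned reads to Ensembl GRCm38 release 94 with a strand option and without new assembly. The deposited gene table holds expected counts: in all 10 libraries all 54532 values matched the sum over transcripts of coverage multiplied by length, divided by 50 bases and rounded up. The deposited transcript files give coverage and TPM. The authors' deposited table gives log2 fold changes, p-values and false discovery rates; the submitters' notes name edgeR 3.18.1, limma 3.32.10 and R 3.4.0. The gene table has 10 further columns of no sample analysed here, which were not used.

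Counts were tested with edgeR 4.0.16 (R 4.3.3): filterByExpr kept 17752 genes, TMM scaled them, and the quasi-likelihood test of CKO against Ctrl was adjusted by Benjamini-Hochberg over all genes at 0.05. It called 497 genes (2.8%). DESeq2 1.42.0 and limma 3.58.1 were alternatives. In simulated counts over 17391 genes 54.6% of 2-fold and 94.6% of 4-fold changes were found, and 11 of 152 calls were false. The simulation drew genes independently and held no outlying libraries, so it cannot speak to calls that rest on single libraries. Members, lists and grouping by transcript end were chosen with earlier results of these data known. Members named are those called, the 15 highest by CPM, the 5 highest and 5 lowest fold changes, testis-type genes and head-to-head partners. Members that met the low-count filter through CKO libraries alone are named too. From each list come up to 4 called genes or the 2 most abundant. Transcript sequences came from the reference annotation of the same build and matched the lengths in the files. Each library is a separate mouse per the labels; same-numbered libraries did not deviate together (correlations 0.0453, 0.116, -0.377 and 0.0959), so no pairing was used. Error values are SDs between libraries.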

Additional observations from a re-analysis of the deposited data

Results flagged for a closer look

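In 14 of 128 groups of values checked, 1 library stood far from the rest of its group (a gap to its nearest neighbour that was large against the group's range); chance flags about 1 in 20 such groups.

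CKO 5 stood above the other CKO libraries for Hist1h4c (60.4 CPM, the others 19.9 to 33.7), Hist4h4 (23.0 CPM, the others 9.76 to 13.3), Kif20a (17.9 CPM, the others 6.15 to 9.62) and Rn7sk (26190 CPM, the others 11600 to 16710). Hist1h2aj was at 0.109 CPM there, from 1 count, and at 0 elsewhere.

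Ctrl 3 stood above the other Ctrl libraries for Hist1h4c (26.9 CPM, the others 17.0 to 17.9), Hist4h4 (14.8 CPM, the others 7.71 to 8.63), Kif11 (3.22 CPM, the others 1.80 to 1.88), Myl7 (7654 CPM, the others 4322 to 4859), Bpifa1 (2183 CPM, the others 1.09 to 136) and Scgb1a1 (862 CPM, the others at most 42.0).

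Hist1h2bm was at 1.33 CPM in Ctrl 4, against 0.423 to 0.546 in the other Ctrl libraries. Bpifa1 was at 3739 CPM and Scgb1a1 at 1452 CPM in CKO 4, against at most 16.4 and 7.97 in the other CKO libraries.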

How the results depend on the processing

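The number of members higher in CKO (18 with edgeR) was 35 with DESeq2, 8 without Ctrl 3 and CKO 4, and between 1 and 28 when 1 library was left out. It was 7 over replicates 1 to 4 alone, a setting added after seeing the data, and 0 over the same libraries with the replicate number as a block. The number lower (1) was 2 with no filter on low counts, where Hist1h2ba passed, 0 with the replicate block, and 1 to 2 with 1 library left out. All genes called (497) were 1132 with DESeq2, 51 with the replicate block, 234 without it over replicates 1 to 4, and 190 to 607 with 1 library left out. Replicate numbers did not pair the libraries, and the fit with the block holds fewer of them. Another scaling, a stricter filter, limma on log2(TPM + 0.1) and Xist as a covariate kept the number higher between 16 and 24. The 24 came from the fit with Xist. The ratio of summed CPM (1.77) was 1.57 to 1.91 in every alternative run.

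Uncalled genes with small fold changes changed sign. Hist1h2al (-0.01) was 0.0097 with RLE scaling, 0.0098 with DESeq2, 0.049 with no filter, 0.065 with Xist and 0.20 without Ctrl 3 and CKO 4, and -0.23 to 0.27 with 1 library left out. Hist3h2a (-0.02) was 0.024 with no filter, 0.0091 with Xist and 0.089 without Ctrl 3 and CKO 4, and -0.090 to 0.14 with 1 left out. With limma on TPM, Atrx was -0.16, Rbbp7 -0.25, Malat1 -0.034, Bpifa1 -3.58 and Scgb1a1 -2.34. Rbbp7 was -0.014 by library size only and -0.027 to 0.15 with 1 left out. Malat1 was -0.0028 without Ctrl 3 and CKO 4, and -0.029 to 0.15 with 1 left out. Bpifa1 and Scgb1a1 were -2.91 and -1.66 with Xist, -3.32 and -2.81 without Ctrl 3 and CKO 4, -7.25 and -5.51 with the replicate block, and -6.95 to 3.75 and -6.74 to 4.04 with 1 left out. Cd4 was 0.10 without Ctrl 3 and CKO 4, 0.22 with the block, 0.057 over replicates 1 to 4 and -0.42 to 0.16 with 1 left out. The cause of these shifts was not tested.

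Intervals for low members are wide: 15 members, with at most 85 counts over 10 libraries, were not tested, and sharing of words between copies limits single genes.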
